A study of Mus musculus with 2 samples.

Results

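TRIM (tripartite motif) genes were followed on a pair of mouse expression arrays of glomerular RNA, probe by probe. Members were the gene probes whose RefSeq accession led to a symbol of Trim followed by a digit and whose spot was well above background on at least 1 of the 2 arrays. Of 93 such probes for 65 genes, 82 probes for 59 genes were kept, out of 18950 named genes kept by the same filter. Trim5, Trim23, Trim30c and Trim43a had no probe with a matching accession, and Trim15, Trim29, Trim31, Trim52, Trim55 and Trim80 were not well above background on either array. Just inside that limit lay Trim54, with processed signals of 9.04 (WT) and 7.08 (Sirpa-/-), and just outside it lay Trim31, with 6.80 and 1.90. Members were thus selected on the signals of these same 2 arrays, and Trim12a and Trim34a were included with their difference known, so all differences below are descriptions.

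The WT group and the group with podocyte-specific deletion of Sirpa (Sirpa-/-) were male mice of 8 months, and both had received 0.5 ml of pristane, a hydrocarbon oil that induces lupus-like disease, 4 months before. Each group gave 1 array of glomeruli, the filtering units of the kidney, so no difference has a replicate check and no test was made. The labels do not name the driver of the podocyte deletion, the strain, or how many animals stand behind an array, and uninjected mice were not analysed here. Glomeruli were collected from digested cortex with magnetic beads and hold other cells, in which Sirpa is left intact, although the study's design text speaks of isolated podocytes.

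Most TRIM proteins have a RING domain, which gives ubiquitin ligase activity, followed by B-boxes and a coiled coil, though some lack the RING, and the family is divided by the domain at the C-terminal end. The largest subfamily carries a PRY-SPRY domain, which binds targets such as viral capsids or immunoglobulin. Many members are induced by interferon and act in the sensing or restriction of viruses, and Trim21 (Ro52) is itself a target of autoantibodies in lupus. In the mouse, a run of TRIM genes lies on chromosome 7 (Trim6, Trim34a, Trim5, Trim12a, Trim34b, Trim12c and the Trim30 genes). It corresponds to the human locus of TRIM5, the retroviral restriction factor, and arose by repeated local duplication. Most of these genes are listed here under PRY-SPRY, but the domains of the single proteins, Trim12a included, were not checked.

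Sirpa itself had processed signals of 11620 (WT) and 17320 (Sirpa-/-), which goes against the label. Where its probe lies relative to the deleted part is not known, so every direction is given by label, Sirpa-/- against WT, and not by a measured loss of Sirpa. Well above background were 85.3% and 86.7% of gene probes on the 2 arrays, and no spot was saturated (0 on both). The 8 podocyte markers were above background on both arrays, with a median log2 difference of 0.12. All 6 B cell markers were higher under the Sirpa-/- label (median 1.33, summed signal 967.3 and 3582), as were 5 of 7 erythroid markers (median 1.5, summed signal 18230 and 53300), while 2 of the 7 were lower. Of the distal nephron markers 5 of 6 were higher (median 1.17, summed signal 2466 and 4374), all 7 T cell markers were higher (median 0.43, summed signal 2006 and 2321), and all 6 proximal tubule markers were lower (median -0.26, summed signal 8209 and 5604). The podocyte, B cell, erythroid and proximal tubule markers were above background on both arrays. The medians of the endothelial, mesangial, macrophage, neutrophil, striated muscle, germ cell and plasmacytoid dendritic cell lists lay between -0.31 and 0.54. In whole-glomerulus RNA, fewer cells of a type and less RNA per cell cannot be told apart.

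Most of the family differed little between the arrays, and the large differences lay in the chromosome 7 cluster. The median log2 difference of the 59 TRIM genes (array labelled Sirpa-/- minus WT, each scaled to its 75th percentile) was 0.00, as it was over all named genes. Higher by 2-fold or more under the Sirpa-/- label were 6 of 59 (10.2%), against 2.05% of all named genes, and lower by 2-fold or more were 0, against 1.95%. All 6 were cluster genes: Trim12a, Trim34a, Trim30e-ps1, Trim34b, Trim30d and Trim6. Of the 9 cluster genes measured, 6 (66.7%) were therefore past 2-fold, with a cluster median of 1.44. Trim30e-ps1 passed the filter only through the Sirpa-/- array, where it was higher. With genes above background on both arrays alone, 5 of 8 cluster genes were past 2-fold. Outside the cluster 0 of 50 genes reached 2-fold in either direction, with a median of -0.01. Counted by probe, 10 of 82 were 2-fold or more higher, against 2.29% of all gene probes, and 0 were lower, against 2.2%. Of these 10, 9 were among the 14 cluster probes. At 1.5-fold, 15 of 82 probes were higher, against 5.88% of all gene probes, and 4 were lower, against 6.24%. Because the family was proposed with these values known, the counts describe it and support nothing further.

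**Figure D1:**
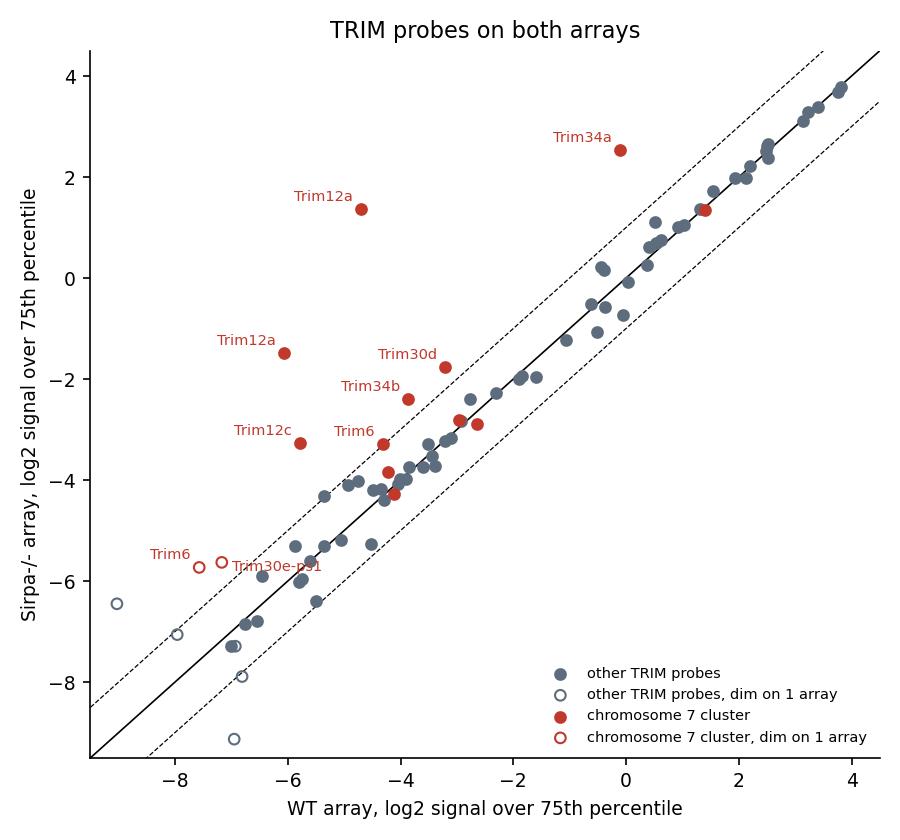
Log2 processed signal of each measured TRIM probe relative to the array's 75th percentile, WT array (x axis) against the array labelled Sirpa-/- (y axis). The solid line marks equal signals and dashed lines 2-fold, open circles are probes above background on 1 array only. Of the 14 cluster probes (red) 9 lie past the upper 2-fold line counting bounds, led by both Trim12a probes, while most of the 68 other probes lie near the solid line.

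Trim12a, a rodent relative of the restriction factor TRIM5, had the highest difference of all 18950 named genes. Its probe A_52_P267391 gave processed signals of 44.56 (WT) and 2864 (Sirpa-/-), a log2 difference of 6.07 (67.08-fold). The other probe, A_55_P2064659, gave 17.28 and 394.3, a log2 difference of 4.57 (23.83-fold). Both probes were low on the WT array but well above background there, and both were far higher on the other array. With background correction by normexp (a model of signal plus noise, here with an offset of 50 added, which shrinks differences of dim probes) the log2 differences were 4.82 and 2.76.

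Trim34a, close to Trim6 in the annotated order and an interferon-inducible PRY-SPRY gene, ranked 25 among all named genes. Probe A_66_P105689 gave 1072 (WT) and 6418 (Sirpa-/-), a log2 difference of 2.64 (6.25-fold). Its other probe, A_52_P157316, gave only 61.66 and 77.30, a difference of 0.39, so the size of the Trim34a difference rests on 1 probe. The further copy Trim34b, read by 1 probe, gave 79.98 and 210.0, a difference of 1.45 (2.74-fold).

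Trim12c, the close copy of Trim12a, had 3 probes that did not share 1 direction. Probe A_55_P2163857, which stands for the gene, gave 184.7 (WT) and 149.6 (Sirpa-/-), a difference of -0.24, and A_55_P2039061 gave 149.2 and 157.2 (0.14). The dimmest, A_55_P2064652, gave 21.04 and 114.9, a log2 difference of 2.51, and 1.27 with normexp. That probe, low under WT and higher under the Sirpa-/- label, shared the pattern of both Trim12a probes.

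Trim6, which makes unanchored ubiquitin chains in interferon signalling, was 2.03-fold higher under the Sirpa-/- label, with signals of 58.50 and 113.6 on A_55_P2109559. A further Trim6 probe, A_55_P1955787, was above background only under the Sirpa-/- label and gave 6.10 and 20.91, at least 3.25-fold higher. With normexp the log2 differences were 0.71 and 0.51, which ended the 2-fold call of both probes, so the bound holds for the processed signals only.

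The Trim30 genes, interferon- and Toll-like receptor-inducible regulators named after Trim30a, were split. Trim30a itself, a regulator that restrains NF-kB signalling, gave 3062 (WT) and 2827 (Sirpa-/-), a difference of -0.05, and Trim30b gave 66.90 and 56.88 (-0.17, and 0.08 with normexp). Trim30d, in contrast, gave 125.3 and 325.1, 2.71-fold higher under the Sirpa-/- label (1.44). The pseudogene Trim30e-ps1 was dim on the WT array (8.01) and gave 22.41 on the other, 2.92-fold higher. Its bound is this same ratio, as 8.01 exceeds the lowest WT signal well above background (6.72). The bound is thus no firm lower limit. With normexp Trim30e-ps1 gave 0.48 (log2), which ended the call. Copies in this cluster are closely related and the probe sequences are not in the files used here, so a probe may read more than 1 copy, Trim5 and Trim30c included, and the assignment to single genes is uncertain.

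**Figure D2:**
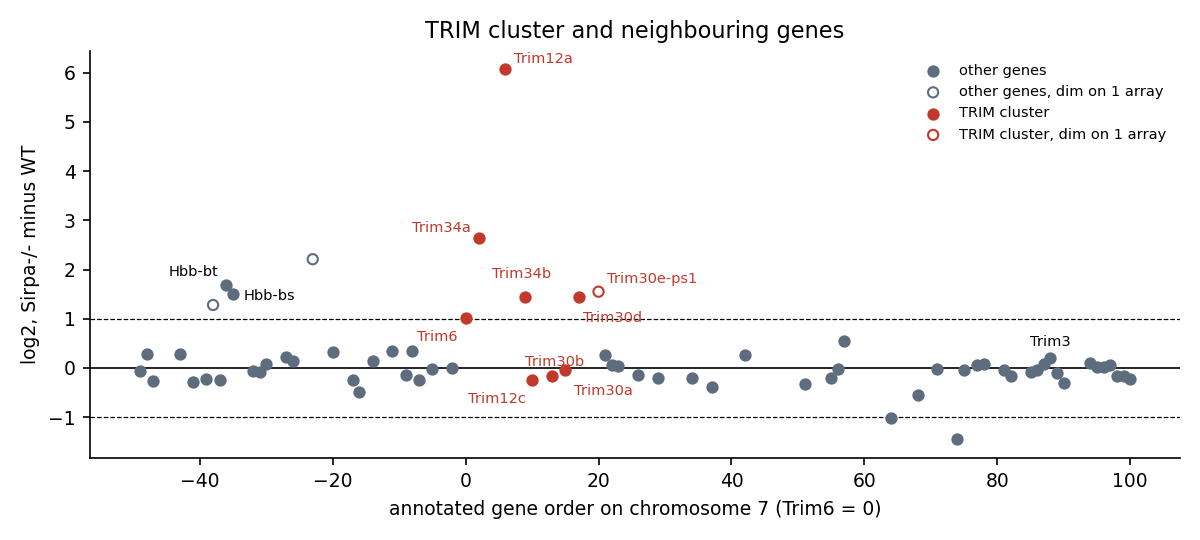
Log2 difference (array labelled Sirpa-/- minus WT) of each measured gene against its place in the annotated gene order on chromosome 7, counted from Trim6; dashed lines mark 2-fold and open circles genes above background on 1 array only. The 6 higher cluster genes (red) stand between dim neighbours close to 0, with Trim12a at 6.07. The globin genes Hbb-bt and Hbb-bs lie further before the cluster at 1.69 and 1.5. Open circles show the plain difference, which need not be the bound, as for Olfr633 at 2.21 with a bound of 0.46.

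The nearest measured genes on both sides of the cluster did not share the difference, but all of them had low signals. Of the 5 annotated genes on either side of the cluster, 5 of 10 were measured, with log2 differences from -0.02 to 0.26. The 5 nearest measured genes before the cluster ranged from -0.25 to 0.35 and the 5 nearest after it from -0.20 to 0.26. These were mostly olfactory receptor genes, with signals from 10.75 (WT) and 10.19 (Sirpa-/-) for Olfm5 to 75.12 and 75.16 for Olfr652. Level values of such dim genes cannot show whether the region around the cluster was unchanged. Over 25 measured genes before the cluster, a range chosen after the values were seen, the median was 0.09. There 2 were 2-fold or more higher, against 2.05% of all named genes, the adult beta-globin genes Hbb-bt (1.69) and Hbb-bs (1.5). Olfr633 (2.21) and Olfr68 (1.28) were above background only under the Sirpa-/- label, and their log2 bounds were 0.46 and 0.92. Over 25 after the cluster, the median was -0.04. There Olfr681 (-1.02) and Olfr690 (-1.45) were at least 2-fold lower, against 1.95% of all named genes. The brightest genes of these ranges were Hbb-bt (10430 and 32260) and Olfr629 (1889 and 1482, -0.29) before the cluster. After it they were Cavin3 (7165 and 6099, -0.17), Fam160a2 (3362 and 3356, 0.06), Smpd1 (2310 and 2084, -0.09) and Trim3 (1540 and 1693, 0.20). Of the 21 annotated genes from Trim6 to Trim30e-ps1, 9 were measured, all of them TRIM genes. The 6 measured TRIM genes elsewhere on chromosome 7 (Trim28, Trim21, Trim68, Trim3, Trim66 and Trim72) ranged from -0.26 to 0.20.

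The promoters of the cluster show how alike its copies are, and those of a pair of Trim12 and a pair of Trim30 copies are printed for comparison. RefSeq windows of assembly GRCm38.p6, 250 bases before to 50 after the annotated start, were found for 10 cluster genes. The Trim12a and Trim12c windows were identical at 247 of 260 aligned bases (95.0%), and Trim12a and Trim5 at 241 of 241. The Trim30a and Trim30d windows were identical at 276 of 295 aligned bases (93.6%). Gaps and unaligned ends were not counted, and under the same measure Trim12a and Trim30d were identical at 167 of 237 aligned bases (70.5%). Thus the paired copies Trim12a and Trim12c, and Trim30d and Trim30a, were near-identical where their promoter windows aligned. On the probes that stand for them their differences were unlike, 6.07 and -0.24 for the Trim12 pair and 1.44 and -0.05 for the Trim30 pair. The contrast is uncertain for Trim12c, whose dimmest probe gave 2.51, and because a probe may read more than 1 copy. The 250 bases before the start follow 5′ to 3′ on the gene's strand, which is the minus strand for all 4, with matches to the core of the interferon-stimulated response element in capitals (GAAA, any 2 bases, GAAA, or on the other strand TTTC, any 2 bases, TTTC).
Trim12a, chr7:104315496-104315745: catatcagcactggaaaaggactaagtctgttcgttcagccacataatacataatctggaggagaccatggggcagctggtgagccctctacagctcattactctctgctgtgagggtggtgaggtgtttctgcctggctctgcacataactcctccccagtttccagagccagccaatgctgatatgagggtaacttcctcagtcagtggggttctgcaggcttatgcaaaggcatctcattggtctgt
Trim12c, chr7:104353350-104353599: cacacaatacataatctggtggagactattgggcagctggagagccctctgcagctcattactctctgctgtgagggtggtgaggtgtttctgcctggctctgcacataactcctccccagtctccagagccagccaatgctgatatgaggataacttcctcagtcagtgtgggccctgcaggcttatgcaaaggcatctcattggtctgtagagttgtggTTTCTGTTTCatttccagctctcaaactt
Trim30d, chr7:104507850-104508099: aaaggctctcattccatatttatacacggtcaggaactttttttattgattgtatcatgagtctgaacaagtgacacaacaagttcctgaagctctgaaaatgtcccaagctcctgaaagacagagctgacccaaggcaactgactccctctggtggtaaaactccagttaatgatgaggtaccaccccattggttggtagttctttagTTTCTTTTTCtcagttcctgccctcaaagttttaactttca
Trim30a, chr7:104465194-104465443: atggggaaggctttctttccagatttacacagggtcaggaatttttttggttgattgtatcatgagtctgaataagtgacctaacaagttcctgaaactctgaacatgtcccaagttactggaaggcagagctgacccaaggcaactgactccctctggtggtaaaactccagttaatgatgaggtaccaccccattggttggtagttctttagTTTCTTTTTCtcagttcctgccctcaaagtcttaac

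The interferon-stimulated response element is bound by interferon regulatory factors and the STAT complex of type I interferon. Its 10-base core, searched on both strands with overlapping matches counted, occurred in 3.44% of all 32851 promoter windows and in 10 of 67 windows of TRIM genes (14.9%). By gene, these were 3.99% of 27025 genes and 9 of 53 TRIM genes, 6 of them in the cluster. In the cluster it was found for 3 of 5 genes at least 2-fold higher (Trim12a, Trim34a and Trim30d) and for 2 of 3 measured genes that were not (Trim12c and Trim30a). In Trim12a and Trim34a the match begins at base 11 after the annotated start, and the 24-base stretch around the Trim12a match is also present before the start of Trim12c and Trim5. Trim21 and Trim26 each hold a pair of overlapping matches. The stretches around the Trim12a, Trim34a and first Trim21 matches follow with the core in capitals. The other Trim21 match lies partly in the lower-case bases after the first.
Trim12a site: gttgtggTTTCTGTTTCatttcca
Trim34a site: tttggagTTTCAGTTTCttttctc
Trim21 site: ctgagagGAAACTGAAAgtgaaat
A match describes the sequence only, and it was present in cluster genes called 2-fold higher and in cluster genes that were not.

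The interferon response itself was set beside the cluster. Of 27 measured genes of the type I interferon response, 1 was 2-fold or more higher, against 2.05% of all named genes, and 0 were lower, against 1.95%. It was Oas2, with 217.6 and 485.8 (2.33-fold higher under the Sirpa-/- label). The median log2 difference of the 27 genes was 0.18, against 0.00 over all named genes. Ifi44 (0.76) and Zbp1 (0.71) were the others past 1.5-fold, so 3 of 27 were higher at that threshold, against 5.3% of all named genes. Partners of TRIM ligases in RIG-I, cGAS-STING and interferon signalling had a median of 0.07 over 24 genes, from -0.25 to 0.53. Of these 0 reached 1.5-fold, against 5.3% of all named genes higher and 5.85% lower. The 11 measured ubiquitin-conjugating enzymes that pass ubiquitin to TRIM ligases had a median of 0.02 and ranged from -0.16 to 0.20. B cell, erythroid, distal nephron and T cell markers were mostly higher along with the cluster genes, as given above. Higher by 2-fold or more were 3 of 6 B cell, 4 of 7 erythroid, 3 of 6 distal nephron and 0 of 7 T cell markers. The share over all named genes was 2.05%. The part of these cell types in the cluster's difference was not tested.

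Several TRIM genes outside the cluster are known from virus sensing and antibody recognition, and those named next were picked for these roles and not from a list. Trim25, which ubiquitinates the RNA sensor RIG-I, gave 6604 (WT) and 6959 (Sirpa-/-), a difference of 0.14. Trim21, the cytosolic antibody receptor and Ro52 autoantigen, gave 3370 and 3672 (0.19). Trim56, a ligase of the STING pathway, gave 2883 and 2870 (0.06), and Trim26 gave 6541 and 6829 (0.12). The MAVS adaptor Trim14 (0.00), Trim27 (0.02), the negative regulator Trim38 (-0.14), Trim68 (-0.12) and the MDA5 ligase Trim65 (-0.17) were also within 1.5-fold on the probes that stand for them. Apart from the cluster, the 24 measured genes listed under PRY-SPRY had a median of 0.01. Of these 0 were past 2-fold, against 2.05% of all named genes higher and 1.95% lower. At 1.5-fold 3 were higher (Trim50, Trim69 and Trim43c), against 5.3% of all named genes, and 0 were lower, against 5.85%.

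**Figure D3:**
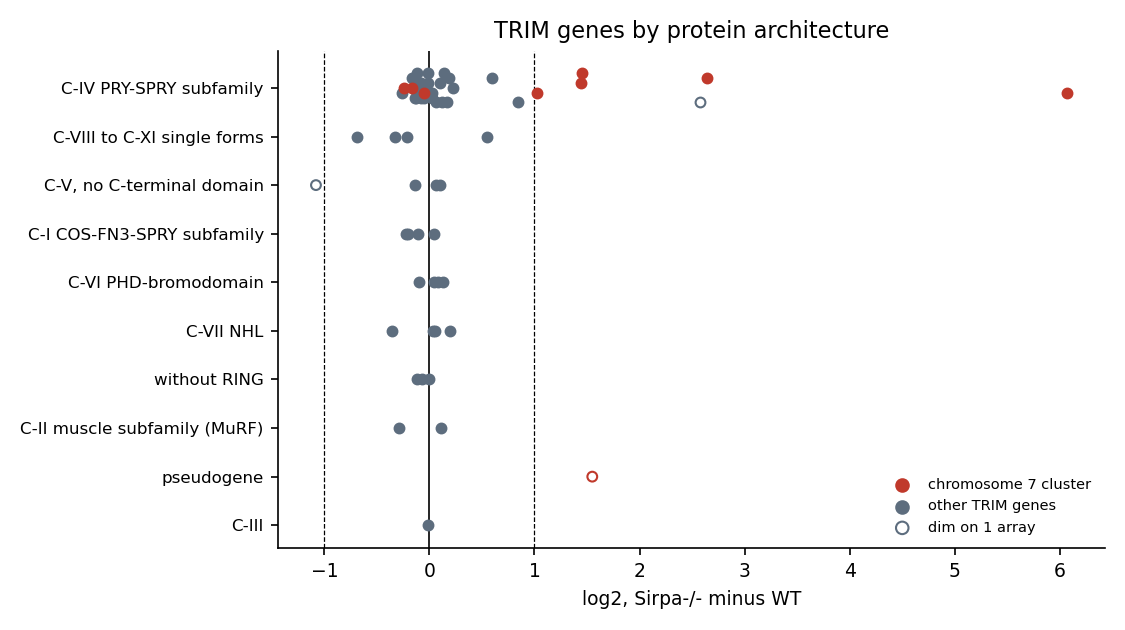
Log2 difference (array labelled Sirpa-/- minus WT) of each of the 59 TRIM genes, 1 point per gene, in rows by protein architecture. Dashed lines mark 2-fold and open circles genes above background on 1 array only, whose plotted value need not be their bound. The 5 filled points past 2-fold are cluster genes (red) listed in the PRY-SPRY row, and the other rows lie between -1.08 and 0.55 apart from the cluster pseudogene. Rows follow a list of subfamilies, and the domains of single proteins were not checked.

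Among the other architectures, the 4 PHD-bromodomain genes, which read chromatin, ranged from -0.10 to 0.13. Trim28 (KAP1), the corepressor recruited by KRAB zinc finger proteins, gave 2209 (WT) and 2240 (Sirpa-/-), a difference of 0.08, Trim24 gave 0.04 and Trim33, a regulator of TGF-beta and SMAD4 signalling, 0.13. The 4 NHL-domain genes ranged from -0.36 (Trim2, a ligase of neurofilament light chain) to 0.20 (Trim3), with Trim32 at 0.05 and the stem cell gene Trim71 at 0.03. The 4 measured genes of the subfamily with COS and fibronectin domains (Trim9, Trim36, Trim46 and Trim67), which binds microtubules, ranged from -0.22 to 0.04. The muscle ligases Trim63 (MuRF1) and Trim54 (MuRF3) gave 0.11 and -0.29 at low signals. The other PRY-SPRY genes Trim7, Trim10, Trim11, Trim17, Trim39, Trim43b, Trim58, Trim60, Trim62 and Trim75 ranged from -0.13 to 0.22, and Trim58, known from red cell maturation, gave 76.94 and 70.97 (-0.05). Trim61 (0.10) and Trim42 (-0.01) were level, and Trim37, a ligase of peroxisomes and centrosomes, and Trim45 gave -0.21 and -0.33. Of the genes without a RING, Trim44 gave 15720 and 14330 (-0.07), Trim16 -0.12 and Trim14 0.00.

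The 5 TRIM genes with the highest mean signals differed by 0.14 or less on the log2 scale. They were Trim41 (16190 and 15200, -0.03), Trim44 and Trim25 as given above, Trim47 (12190 and 11630, -0.01) and Trim35 (10820 on both arrays, 0.06, with 0.56 on a dim probe). Trim8, a regulator of cytokine signalling, was spotted 10 times. Its spots ranged from 6036 to 7115 (median 6493) for WT and from 5497 to 6078 (median 5676) under the Sirpa-/- label, so the groups of spots overlapped slightly. The spot-by-spot log2 differences had a median of -0.11 and an SD of 0.09, which is technical spread within these hybridisations alone. Over 350 probes spotted repeatedly, the median SD of single-spot differences was 0.07, and over the 100 of these with signals below the median of all gene probes it was 0.32.

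Outside the cluster, 45 of 50 TRIM genes differed by less than 1.5-fold. Higher by 1.5-fold or more were 3 of 50, against 5.3% of all named genes, and lower were 2, against 5.85%. Trim59, a membrane-anchored member, was lower on both of its probes, with 1119 and 663.0 (-0.69) on A_55_P2030938 and 814.3 and 528.5 (-0.56) on A_55_P2105152. Trim13, a ligase of the endoplasmic reticulum membrane, was higher on both, with 885.7 and 1243 (0.55) on A_55_P2015258 and 847.9 and 1287 (0.66) on A_66_P136097.

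The remaining genes near or past 1.5-fold rested on dim signals or on 1 probe. Trim69 gave 37.72 (WT) and 64.75 (Sirpa-/-), a difference of 0.84, and 0.56 with normexp. Trim50, a PRY-SPRY ligase of gastric parietal cells, was above background only under the Sirpa-/- label (2.21 and 12.65), at least 1.96-fold higher by its bound, and gave 0.41 (log2) with normexp. Trim40, above background only on the WT array (10.31 and 4.69), was at least 1.59-fold lower. With normexp it gave 0.05 (log2), close to the median of all named genes there (0.08), so its lower value depends on the background correction. Trim43c gave 1654 and 2394 on A_55_P1984314 (0.60), while its other kept probe, at 9.37 and 1.98, was above background only on the WT array. Trim65 gave -0.90 on its dimmer probe (25.58 and 13.10), and -0.08 there with normexp.

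**Figure D4:**
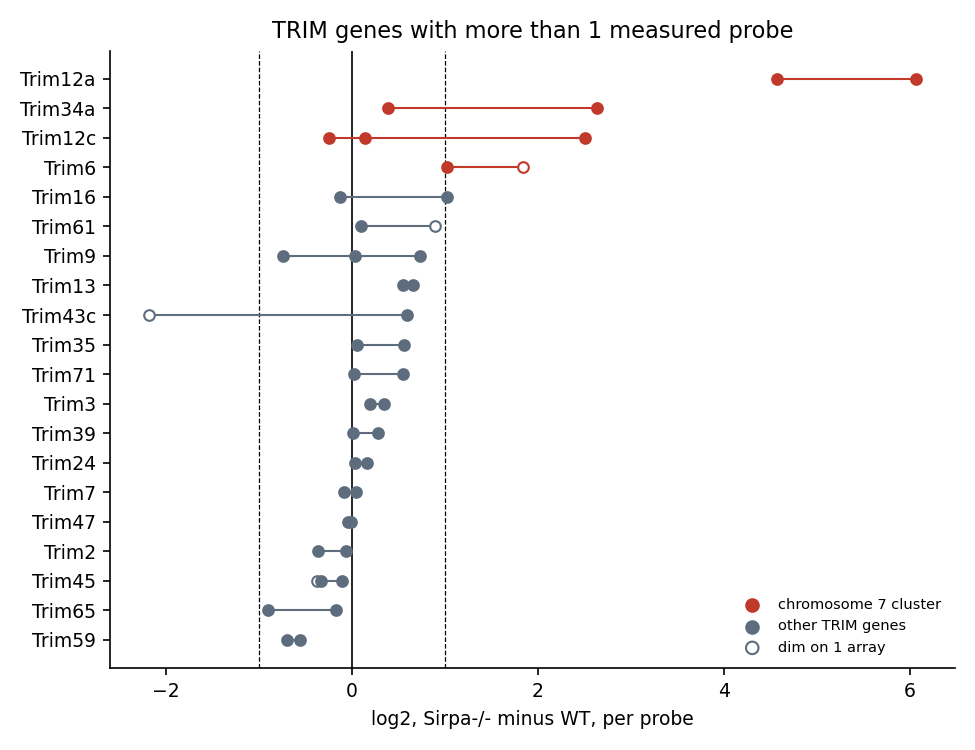
Log2 difference (array labelled Sirpa-/- minus WT) of each measured probe of the 20 TRIM genes with more than 1, joined by a line per gene; dashed lines mark 2-fold and open circles probes above background on 1 array only. Both Trim12a probes lie past 4, the Trim34a and Trim12c probes are spread over more than 2 log2 units, and Trim13 and Trim59 have close pairs.

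The agreement of probes sets how far single values can be read. In 6 of the 20 TRIM genes with more than 1 measured probe (30.0%) the probes lay at least 1 log2 unit apart, against 6.96% of 4842 named genes. These were Trim12a, Trim12c, Trim34a, Trim43c, Trim9 and Trim16. Trim9, a brain-enriched ligase, gave 0.74 (42.76 and 68.29), -0.74 (50.36 and 28.98) and 0.04 (233.4 and 230.2) on its 3 probes. Trim16 gave 28.39 and 55.46 on A_52_P325477 (1.03) but 1192 and 1050 on A_55_P1998947 (-0.12). The former was the only TRIM probe outside the cluster past 2-fold, and with normexp it gave 0.50. In the other 14 genes the probes lay less than 1 log2 unit apart.

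**Figure D5:**
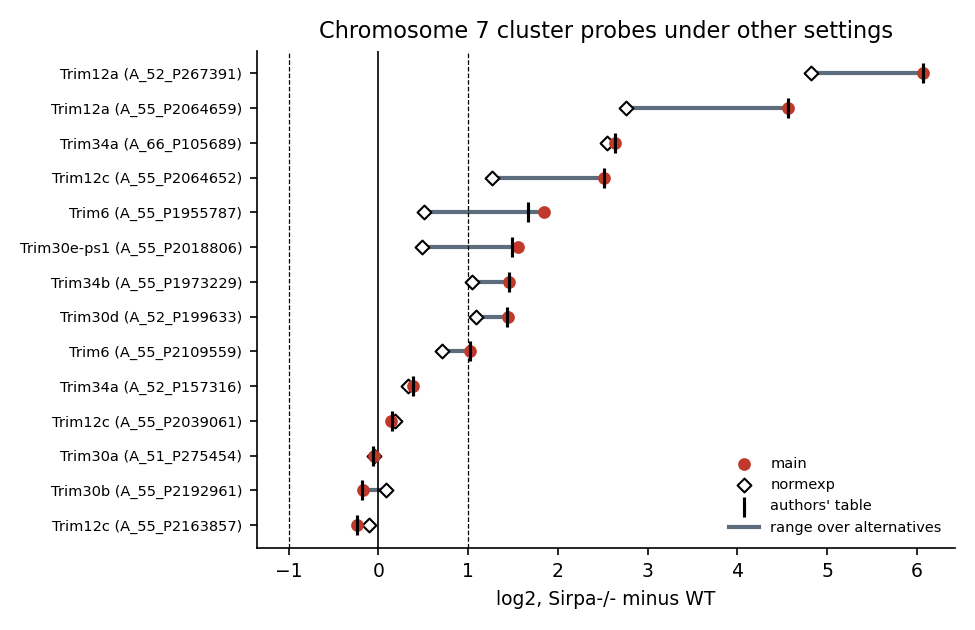
Log2 difference (array labelled Sirpa-/- minus WT) of the 14 measured cluster probes: red points with the main processing, diamonds with normexp, ticks from the authors' deposited table, and grey bars the range over the alternatives that kept the probe; dashed lines mark 2-fold. Differences of dim probes shrink with normexp, and the 2 Trim12a probes stay at 2.76 or more.

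Genes of tripartite or related build under other names gave no like shift. The 8 measured, Pml among them, had a median of 0.16, and the highest was at 0.43. Cmya5, a muscle protein with a PRY-SPRY domain, was the 1 past 2-fold, with 399.8 (WT) and 115.3 (Sirpa-/-), a difference of -1.73.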

How the data were processed

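The authors deposited 1 scanner file per array, with fluorescence intensity per spot. Background was subtracted and detrended by Agilent Feature Extraction, with no normalization between arrays, per the file headers. Those headers give version 11.0.1.1 and the submitters' processing notes 9.1. Other values used here were quality flags of 0 or 1 and, for normexp, the median signals of spot and background. The barcodes in the file headers begin with 1 for both arrays, which does not establish that they shared a slide. The deposited value table of the authors, used as an alternative, holds log2 values with a median of 6.50 in both columns. How they were centred is unknown, and each column matched its own array more closely than the other (Pearson's r across probes 0.9945 against 0.9864, and 0.9938 against 0.986).

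Unmarked spots of a probe were averaged as log2 processed signal (a probe was above background if over 50% of its spots were), and each array's 75th percentile (1157.4 and 1108.8) was subtracted. Accessions without version were matched to RefSeq genes (GRCm38.p6), which named 69.1% of gene probes. The probe of highest mean signal stands for a gene. A probe dim on 1 array has a bound, taken from its own signal there or the array's lowest well above background (6.72 and 6.21), whichever was higher. Python 3.11.15, pandas 2.3.3, R 4.3.3 and limma 3.58.1 (loess, and normexp with offset 50 on the median spot signal, as a mean signal was not used here) were run, and the scaling was tested on simulated data. With 1 array per group nothing was tested. Genes were named by rule: the cluster, probes 1.5-fold apart, the 5 highest signals and probes that disagree by 1 or more. Others were named for their role or by subfamily. The members and lists were chosen with earlier results of these data known.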

Additional observations from a re-analysis of the deposited data

How the results depend on the processing

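The 6 TRIM genes at least 2-fold higher were called, with the same 6 members, under quantile normalization, median centring, loess, scaling over probes above background on both arrays, the authors' table, no filter and with outlier spots kept. The count was also 6 with the mean of a gene's probes. The count was 5 with probes above background on both arrays (without Trim30e-ps1) and 4 with normexp, chosen on median signals after seeing the files, or with the brighter probes only, both times Trim12a, Trim30d, Trim34a and Trim34b. At a threshold of 3-fold it was 2, for which no share over all named genes was computed. At 1.5-fold it was 9 (15.3%), against 5.3% of all named genes. The 0 genes at least 2-fold lower became 2 at 1.5-fold (3.39%, against 5.85% of all named genes) and 1 without a filter, where Trim31, dim on both arrays, entered. The median of 0.00 was 0.10 with normexp, where that of all named genes was 0.08, and 0.25 as a mean over genes. Without the cluster the median was -0.01. Over all named genes, 388 were higher and 369 lower by 2-fold, and 120 and 80 with normexp. Of the 10 probes past 2-fold, 6 stayed past it in every alternative that kept them, and 0 of the 10 changed sign. Trim30b and Trim40, not past 2-fold, went from below 0 to 0.08 and 0.05 with normexp, close to the median of all named genes there (0.08). Dim probes moved most with normexp: Trim12a gave 4.82 and 2.76. The normexp setting adds an offset of 50 to the signals of both arrays, which by itself shrinks the differences of dim probes. A lost 2-fold call of a dim probe there is therefore partly set by the offset, and no smaller offset was run. No paired analysis was possible because each group has 1 array.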
